A study of Mus musculus with 6 samples.

Results

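Alternative activation is the program that macrophages and related myeloid cells enter under interleukin-4 and interleukin-13, and 8 of its genes in the mouse were followed here, namely Arg1, Chil3, Retnla, Mrc1, Ear2, Mgl2, Clec10a and Il4ra. They were chosen by name, as those of the 57132 genes in the table whose Ensembl identifier carries one of these 8 symbols in the GENCODE annotation. All 8 were found, and 7 of the 8 had enough reads to be tested, while Retnla had none. Interleukin-4 binds a receptor whose alpha chain is encoded by Il4ra. The receptor activates JAK kinases, which phosphorylate the transcription factor STAT6, and STAT6 turns on Arg1, Chil3, Retnla, Mrc1 and both galactose lectin genes in mouse macrophages. In cultures of bone marrow with GM-CSF some of these genes are also known to be expressed without added interleukin-4.

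Cells came from the femora and tibiae of female C57BL/6 mice aged 6 to 8 weeks and grew in medium with dialyzed serum and 15 ng/mL of the growth factor GM-CSF, renewed on days 2 and 4, until RNA was taken on day 5. One group (0Q) received no queuine, and the other (100Q) received 100 nM queuine, the base that animals obtain from diet and microbes and insert into the anticodons of certain tRNAs. Each group had 3 mRNA sequencing libraries, given as estimated read counts per gene. No allele or cytokine besides GM-CSF is named for either group, and no sorting of cells is named, so each library holds whatever cells such a culture contains. The 2 groups thus share everything in the labels but queuine.

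The cells are labelled as dendritic cells, and markers of other myeloid cells were detected beside those of dendritic cells. All 10 dendritic cell markers examined had enough reads to be tested, and their summed level was 903 to 1071 CPM (counts on a per-million scale) without queuine and 935 to 1073 CPM with it. Most of the sum without queuine came from H2-Aa and H2-Ab1, at 577 ± 91.9 and 226 ± 10.9 CPM (SD, n = 3 each). Itgax had 98.6, Cd209a 44.6, Ccr7 22.7, Batf3 15.6 and Xcr1 5.13 CPM without queuine. Flt3, Zbtb46 and Dpp4 had only 1.12, 1.17 and 2.23 CPM without queuine, and 3.33, 2.46 and 3.87 CPM with it. Each of them cleared the filter on low counts in 1 of 3 libraries of 0Q and 2 of 3 of 100Q. All of these but H2-Aa and Itgax are named after their values were seen. Of 10 macrophage markers 7 were tested, with C1qa, C1qb and C1qc under the filter, and their sum was 1284 to 1614 CPM without queuine and 1231 to 1577 CPM with it. The 12 neutrophil lineage markers summed to 18232 to 21280 CPM without queuine and 15252 to 18385 CPM with it. Libraries held 3675931 to 6755398 counts, except 100Q replicate 3 with 19386617. A minimum of 3 counts stood for 0.159 CPM there and for 0.833 CPM in the shallowest library, and such limits and intervals for single libraries cover counting error only, since reads without molecular identifiers are not independent molecules. In such bulk samples fewer cells of a type and less RNA per cell cannot be told apart.

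Chil3 and Retnla stood at the opposite ends of the set, one among the most abundant transcripts of the cultures and the other without a read. The stretches of 250 bases before their start sites are shown because both are classical STAT6 targets. They are RefSeq sequences on GRCm38.p6, Chil3 from chr3:106167565-106167814 on the minus strand and Retnla from chr16:48842359-48842608 on the plus strand, 5′ to 3′, with a match to a motif of STAT factors in capitals.
Chil3: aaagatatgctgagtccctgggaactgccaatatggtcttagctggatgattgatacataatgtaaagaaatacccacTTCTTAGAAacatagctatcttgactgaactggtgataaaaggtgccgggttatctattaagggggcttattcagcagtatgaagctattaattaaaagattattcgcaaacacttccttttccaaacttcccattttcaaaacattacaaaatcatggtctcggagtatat
Retnla: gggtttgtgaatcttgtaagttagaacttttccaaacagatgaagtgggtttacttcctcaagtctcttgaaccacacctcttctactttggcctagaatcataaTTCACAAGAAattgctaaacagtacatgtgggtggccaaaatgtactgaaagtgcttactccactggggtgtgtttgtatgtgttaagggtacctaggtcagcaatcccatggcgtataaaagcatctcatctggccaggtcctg
The motif TTCNNNNGAA, the form that STAT6 is known to prefer, occurred 1 time in the Retnla stretch, starting at position -145 from the start site. The motif TTCNNNGAA, with the spacing known for other STAT proteins, occurred 1 time in the Chil3 stretch at position -172. Both motifs read the same on the 2 strands, and the 2 matches do not overlap, as they lie in different promoters. TTCNNNNGAA was present in 5.85% and TTCNNNGAA in 7.02% of the 32851 promoters of the same length in the table. The stretches of Mrc1, Ear2, Mgl2 and Il4ra held neither, and 6 of the 8 genes had an entry. A match is a string of letters and was not tested for binding.

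Several of the 8 genes have near-identical relatives, and the coding sequences show how far reads can tell them apart. The pairs below are 60-base stretches of coding sequence (GENCODE release 39 on GRCm39) where each pair differs most within 1 coding exon, 5′ to 3′, with differing bases in capitals. The coding sequences of Chil3 and its relative Chil4 were 95.4% identical, and in the stretch from chr3:106063030-106063089 (Chil3, minus strand) and chr3:106113357-106113416 (Chil4, minus strand) 10 bases differed.
Chil3: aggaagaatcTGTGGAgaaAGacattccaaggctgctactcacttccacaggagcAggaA
Chil4: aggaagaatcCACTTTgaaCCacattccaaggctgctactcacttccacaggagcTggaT
Mgl2 and Clec10a both lie on chromosome 11 and were 91.1% identical over 912 aligned coding bases, of the 996 in Mgl2. Identity of each pair leaves out bases without a counterpart. In the stretch from chr11:70061272-70061331 (Clec10a, plus strand) and chr11:70027775-70027834 (Mgl2, plus strand) 19 bases differed.
Clec10a: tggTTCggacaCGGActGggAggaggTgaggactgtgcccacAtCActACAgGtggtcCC
Mgl2: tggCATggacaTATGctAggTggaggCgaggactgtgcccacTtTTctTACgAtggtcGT
Ear2 was 95.7% identical to Ear1 and 88.2% identical to Ear6. In the stretch from chr14:44340439-44340498 (Ear2, plus strand) and chr14:44056712-44056771 (Ear1, minus strand) 5 bases differed.
Ear2: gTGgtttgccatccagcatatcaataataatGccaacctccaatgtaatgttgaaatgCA
Ear1: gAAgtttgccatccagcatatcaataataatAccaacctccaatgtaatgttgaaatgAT
Of all 50-base windows of the canonical transcript, 41.2% for Ear2, 29.4% for Chil3, 16.0% for Mgl2 and 9.97% for Clec10a also occurred in a transcript of another gene. For Arg1, Retnla, Mrc1 and Il4ra the share was 0%. Windows were compared in the direction of transcription only. Overlap with genes on the opposite strand, described below for Arg1, Il4ra and Ear2, is therefore not counted in these shares. Estimated counts of the first 4 genes therefore depend in part on how ambiguous reads were divided.

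In levels per transcript length, Chil3 was far above the rest in every library. The level is given as TPM (counts per kilobase of the Ensembl canonical transcript, on a per-million scale over all genes), and was 1639 for Chil3 as the mean of 6 libraries, rank 108 of 10538 genes. Mgl2 followed at 177, Ear2 at 109 and Mrc1 at 49.1, and Clec10a had 12.6. The receptor chain Il4ra had 2.95 and Arg1 2.68, and Retnla had 0. The ranges of neighbours in this order over the 6 libraries did not overlap, except those of Il4ra (1.93 to 4.82) and Arg1 (0.126 to 6.54), which changed places when the longest transcript was used as the length. Mgl2 had 138 to 224 and Ear2 had 90.6 to 134.

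**Figure D1:**
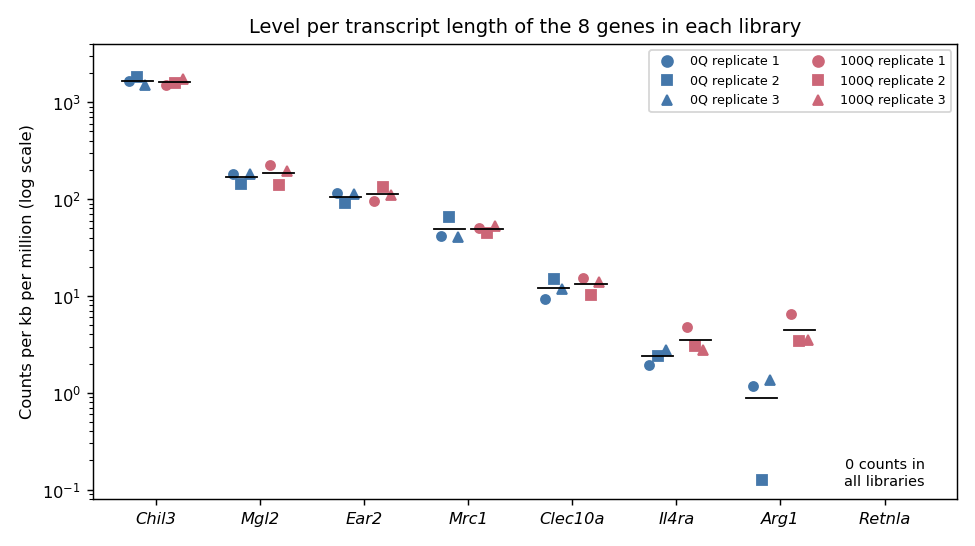
Level of each of the 8 genes in each library, in counts per kb of transcript on a log axis after scaling each library to the same total, with 0Q in blue, 100Q in red, a marker shape per replicate and a bar at each group mean. Chil3 sits at 1502 or more in all 6 libraries, the 0Q libraries of Arg1 lie below its 100Q libraries, and Retnla has no point because it had 0 counts.

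Of the 7 tested genes, none passed the test of queuine. With edgeR's quasi-likelihood test over 10554 genes, 0 of the 7 reached an adjusted p under 0.05, each with an adjusted p of 0.999, and 0% of all tested genes did. Arg1 alone had an unadjusted p under 0.05 by edgeR, a mark that 2.93% of all tested genes reached and 1.77% reached with higher values in 100Q. Arg1 was also the only one of the 8 whose 3 libraries of 100Q all lay above those of 0Q in CPM, which 4.42% of all tested genes did, and for none of the 8 did they all lie below, which 3.86% did. Arg1 had passed the filter on low counts through the 100Q libraries alone, where 3 of 3 exceeded the cutoff of 1.82 CPM, against 0 of 3 in 0Q. A gene admitted in that way had to differ, so neither the count nor a median of the tested genes supports a change.

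**Figure D2:**
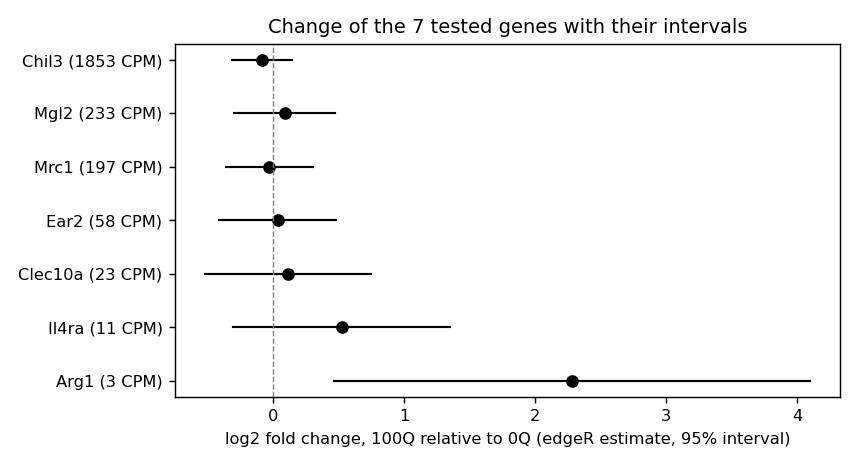
Estimated log2 fold change (100Q relative to 0Q) of the 7 tested genes by edgeR, ordered by mean CPM, with a dashed line at no change. Bars are 95% intervals derived from the estimate and its F statistic. The interval is narrowest for Chil3 at the top and widest for Arg1 at the bottom, and 6 of 7 include 0.

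Il4ra (ENSMUSG00000030748, chr7:125151079-125182844, plus strand, 11 exons) encodes the chain that both interleukin-4 and interleukin-13 receptors contain. It had 8.12, 8.88 and 11.1 CPM in replicates 1, 2 and 3 without queuine, and with queuine the values were 18.4, 11.2 and 10.8 CPM. Only 100Q replicate 1 stood clear of the others, and the groups overlapped at 11.1 and 10.8 CPM. With means of 9.37 ± 1.55 and 13.5 ± 4.30 CPM (SD, n = 3 each), the log2 fold change was 0.52 (SE 0.39, 95% interval -0.30 to 1.35, unadjusted p = 0.199 by edgeR). The span of a long noncoding RNA on the other strand, Gm44876, overlaps that of the gene. Exonic bases shared by the pair were not counted, and the strand setting of the counting is not given. The expected counts of Il4ra were whole numbers in every library, 43, 63 and 40 in 0Q and 97, 53 and 205 in 100Q.

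Arg1 (ENSMUSG00000019987, chr10:24791118-24803817, minus strand, 8 exons) encodes arginase, which splits arginine into ornithine and urea. It was barely detected, with 8, 1 and 6 reads in 0Q replicates 1, 2 and 3 and 40, 18 and 79 reads in 100Q replicates 1, 2 and 3. In CPM these were 1.51, 0.141 and 1.67 against 7.60, 3.79 and 4.17. All 3 libraries with queuine were above all 3 without, by a margin that rested on few reads. The nearest libraries were 0Q replicate 3 (exact Poisson 95% interval 0.612 to 3.63 CPM) and 100Q replicate 2 (2.25 to 5.99 CPM), whose intervals overlapped. Means were 1.11 ± 0.84 CPM without queuine and 5.19 ± 2.10 CPM with it (SD, n = 3 each). The log2 fold change was 2.28 (SE 0.86), or 4.86-fold with a 95% interval of 1.38 to 17.1, at an unadjusted p = 0.0169 and an adjusted p = 0.999 by edgeR. With 1 library left out it was lowest at 1.69, in the absence of 0Q replicate 2, and highest at 2.69, in the absence of 0Q replicate 3, and without 100Q replicate 1 it was 1.89 (unadjusted p = 0.0985 by edgeR).

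The long noncoding RNA Gm36172 (ENSMUSG00000112758) lies on the strand opposite to Arg1 and shares 762 exonic bases with it, 307 of them with the canonical Arg1 transcript. It had 0, 8 and 0 counts in 0Q replicates 1, 2 and 3 and 36, 2 and 25 counts in 100Q replicates 1, 2 and 3. Its highest value was thus in the library where Arg1 was highest, 100Q replicate 1. In 0Q replicate 2 it had more reads than Arg1. The shared bases are 762 of the 3144 exonic bases of Gm36172, and the expected counts of both genes were whole numbers in every library. To which gene reads within the shared bases belong cannot be told without the strand of the libraries. Summed over both genes, a step chosen after the values were seen, the locus had 1.51, 1.27 and 1.67 CPM without queuine, and with queuine it had 14.4, 4.21 and 5.50 CPM. The log2 fold change of the sum was 2.44 (SE 0.66). The summed locus also passed the filter through the 100Q libraries alone, with 3 of 3 over the cutoff against 0 of 3 in 0Q, so it too had to differ, and its adjusted p was 0.999 by edgeR.

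**Figure D3:**
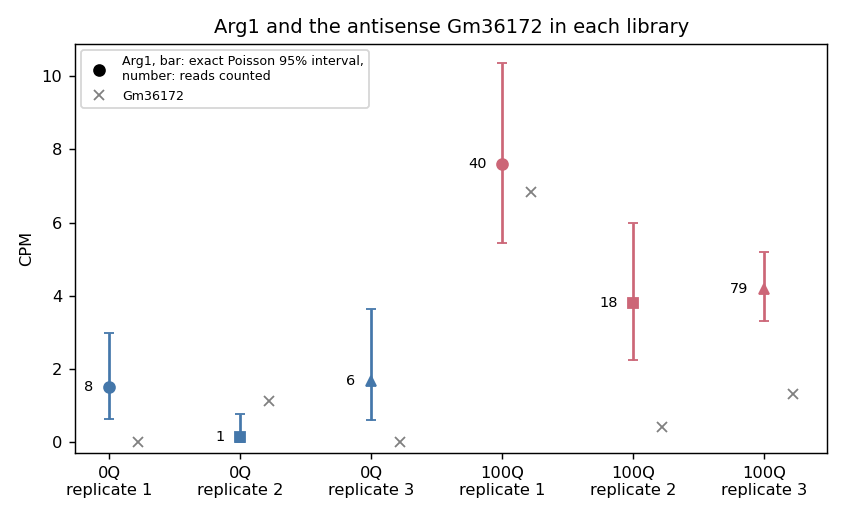
Arg1 in CPM in each library with exact Poisson 95% intervals and the number of reads beside each point, and the overlapping antisense RNA Gm36172 as crosses. The 0Q points rest on 1 to 8 reads and the 100Q points on 18 to 79, and both genes peak in 100Q replicate 1.

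Chil3 (ENSMUSG00000040809, chr3:106054870-106074880, minus strand, 11 exons) encodes Ym1, a secreted chitinase-like protein without chitinase activity. It had 2016, 1949 and 1757 CPM in replicates 1, 2 and 3 without queuine, and with queuine the values were 1690.2, 1686 and 2019 CPM. The groups overlapped, with 100Q replicate 3 the highest of all 6. Means were 1908 ± 134 and 1798 ± 191 CPM (SD, n = 3 each), and the log2 fold change was -0.08 (SE 0.11, 95% interval -0.31 to 0.14, unadjusted p = 0.440 by edgeR). This was the narrowest interval of the 7, and it spans folds from 0.806 to 1.10. Reads given to Chil4 were at most 0.034% of those of Chil3 and Chil4 together in any library, despite the near-identity shown above.

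Retnla (ENSMUSG00000061100, chr16:48662895-48664824, plus strand, 4 exons) encodes RELM-alpha, a secreted cysteine-rich protein that interleukin-4 strongly induces in macrophages. No library held a read of it, and 3 counts in the deepest, the limit that a count of 0 allows, would be 0.159 CPM. Of its relatives, Retnlb also had 0 counts, and Retnlg, a gene of neutrophils, had 53.4 ± 11.1 CPM without queuine and 43.7 ± 7.81 CPM with it (SD, n = 3 each). None of the 50-base windows of Retnla occurred in a transcript of another gene, compared in the direction of transcription.

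Mrc1 (ENSMUSG00000026712, chr2:14234151-14336926, plus strand, 30 exons) encodes the mannose receptor CD206, an endocytic lectin of macrophages and GM-CSF cultured cells. It had 181, 246 and 169.7 CPM in replicates 1, 2 and 3 without queuine, and with queuine the values were 200.5, 172 and 213 CPM. The highest and the lowest library both belonged to 0Q. Means were 199 ± 41.0 and 195 ± 21.4 CPM (SD, n = 3 each), and the estimate was -0.03 on the log2 scale (SE 0.16, 95% interval -0.36 to 0.30, unadjusted p = 0.861 by edgeR). The microRNA gene Mir511 lies within Mrc1 on the same strand.

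Mgl2 (ENSMUSG00000040950, chr11:70020954-70028376, plus strand, 10 exons) encodes CD301b, a lectin for galactose-type sugars that marks a class of dendritic cells and macrophages. It had 259, 176 and 244 CPM in replicates 1, 2 and 3 without queuine, and with queuine the values were 289, 171 and 259.7 CPM. The replicates numbered 2 were the lowest in both groups, and the groups overlapped throughout. Means were 226 ± 44.2 and 240.2 ± 61.3 CPM (SD, n = 3 each). The log2 fold change was 0.09 (SE 0.18, 95% interval -0.29 to 0.47, unadjusted p = 0.634 by edgeR). Over the 6 libraries Mgl2 varied more than most genes of its abundance, with a coefficient of variation of 20.7% against a median of 11.7% for 822 genes of similar level, of which 93.3% varied less.

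Clec10a (ENSMUSG00000000318, chr11:70047023-70061660, plus strand, 9 exons) encodes CD301a, the sister lectin. It had 18.2, 25.6 and 22.04 CPM in replicates 1, 2 and 3 without queuine, and with queuine the values were 27.1, 17.7 and 26.0 CPM. The groups overlapped at means of 21.9 ± 3.71 and 23.6 ± 5.18 CPM (SD, n = 3 each). The log2 fold change was 0.12 (SE 0.30, 95% interval -0.52 to 0.75, unadjusted p = 0.705 by edgeR). Per transcript length Mgl2 exceeded Clec10a by a factor of 19.8, 9.55 and 15.3 in 0Q and 14.8, 13.5 and 13.8 in 100Q. The ratio was therefore above 9 in every library, and its highest and lowest values were both in 0Q. Summed, as a guard against reads divided between the pair, the 2 genes had a log2 fold change of 0.09.

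Ear2 (ENSMUSG00000072596, chr14:44311771-44340996, plus strand, 2 exons) encodes a ribonuclease of the eosinophil-associated family, which is also expressed by some macrophages. It had 65.7, 45.5 and 61.6 CPM in replicates 1, 2 and 3 without queuine, and with queuine the values were 49.6, 67.2 and 59.97 CPM. The groups covered nearly the same range, at means of 57.6 ± 10.7 and 58.9 ± 8.87 CPM (SD, n = 3 each), and the log2 fold change was 0.03 (SE 0.21, 95% interval -0.41 to 0.48, unadjusted p = 0.871 by edgeR). Ear2 took 41.5% to 53.0% of the reads of Ear1, Ear2, Ear6, Ear10 and Ear14 in 0Q and 48.9% to 53.8% in 100Q. Summed over these 5 genes the log2 fold change was -0.11, of the opposite sign. Ear6 had 61.8 ± 13.6 CPM without queuine and 49.9 ± 2.27 CPM with it (SD, n = 3 each), and Ear10 and Ear14 had 0 counts. The spans of the lncRNA Gm49099, on the other strand, and of the pseudogene Gm16545, on the same strand, overlap that of Ear2. Exonic bases shared with Ear2 were not counted for either.

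The 3 genes of the set at 100 CPM or more were compared with the other genes at that level by their profile over the libraries. Among 1243 such genes, the log2 of CPM plus 1 of Chil3 over the 6 libraries was closest to that of Ilf2 (Pearson r = 0.993), an RNA-binding factor subunit, and of Usp14 (r = 0.980), a deubiquitinase of the proteasome. For Mrc1 the closest were Atp6ap1 (r = 0.919), an accessory subunit of the vacuolar proton pump, and Psmd10 (r = 0.898), a proteasome assembly chaperone. For Mgl2 they were Psma4 (r = 0.998), a proteasome subunit, and Atp6v0d2 (r = 0.990), a proton pump subunit of macrophages and osteoclasts. These values are the highest of many over 6 points that share library, depth and scaling, and they are given as a description. Mgl2, Psma4 and Atp6v0d2 had in common their lowest values in the replicates numbered 2 of both groups.

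**Figure D4:**
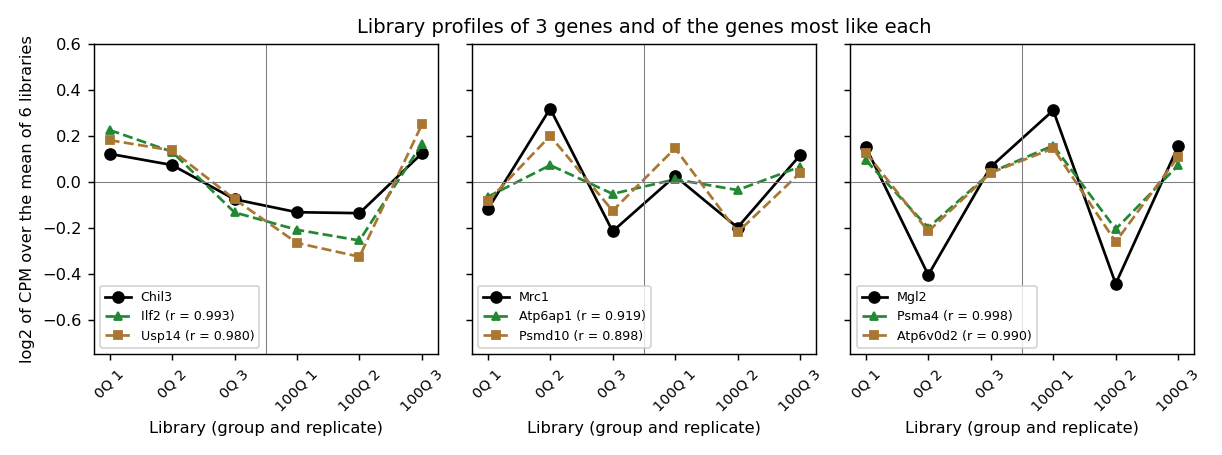
Profiles of Chil3, Mrc1 and Mgl2 (black) and of the 2 genes most like each over the 6 libraries, as log2 of CPM relative to the mean of the libraries, with a vertical line between 0Q and 100Q. Mgl2 dips in replicate 2 of both groups by more than Psma4 and Atp6v0d2, and Chil3 is highest in 100Q replicate 3 and 0Q replicate 1.

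The other genes of the pathway were read from lists, and 0 genes of any list passed the test. Counts of estimates above or below 0 and medians are read against the median of all tested genes, 0.00 on the log2 scale, and the median of the 7 tested genes of the set was 0.09. In the list of receptors and JAK-STAT6 signalling, 9 of 13 genes were tested, 7 above 0 and 2 below, median 0.12. Il4, the cytokine itself, had 2.09 ± 1.09 CPM without queuine and 4.83 ± 2.37 CPM with it (SD, n = 3 each, log2 fold change 1.17, SE 0.75, unadjusted p = 0.138 by edgeR). Its groups overlapped, and it rested on 35 reads in 0Q and 102 in 100Q. Il2rg, the common gamma chain that pairs with the product of Il4ra, had 204 ± 37.6 and 221 ± 37.3 CPM. Il13 and the decoy receptor Il13ra2 had 0 counts in all libraries.

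Among transcription regulators of alternative activation all 11 were tested, 9 above 0 and 2 below, median 0.26. Bhlhe40, a repressor of the basic helix-loop-helix class, was the most abundant at 115 ± 18.7 and 115 ± 5.23 CPM. Its relative Bhlhe41, a factor of tissue macrophages, had 69.2 ± 6.49 CPM without queuine and 86.7 ± 17.8 CPM with it (SD, n = 3 each, log2 fold change 0.32, SE 0.20). Irf4 and Klf4, which act with STAT6, were the 2 genes whose 100Q libraries lay wholly above those of 0Q, against 4.42% of all tested genes, and they are named after their values were seen. Irf4 had 11.5 ± 1.29 and 14.3 ± 1.31 CPM (log2 fold change 0.32, SE 0.35, unadjusted p = 0.373 by edgeR). Klf4 had 26.2 ± 1.57 and 30.1 ± 1.74 CPM (log2 fold change 0.20, SE 0.26, unadjusted p = 0.457 by edgeR).

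Of 22 other alternative activation genes 16 were tested, 12 above 0 and 4 below, median 0.19. Mmp12, the macrophage elastase, had 17604 ± 2631 CPM without queuine and 19217 ± 3541 CPM with it. Ccl17, a chemokine for the receptor CCR4, had 255 ± 25.4 and 335 ± 65.4 CPM (SD, n = 3 each, log2 fold change 0.40, SE 0.15, unadjusted p = 0.0161, adjusted p = 0.999 by edgeR), and its groups overlapped. The 100Q libraries of Msr1, Ccl22 and Ocstamp lay wholly above those of 0Q, and those of Ear6 wholly below, against 4.42% and 3.86% of all tested genes, and they are again named after the values were seen. Ccl22, the other ligand of that receptor, had 29.3 ± 2.05 and 38.8 ± 2.14 CPM (log2 fold change 0.40, SE 0.24, unadjusted p = 0.106 by edgeR). Ocstamp had the largest estimate of the list, 1.48 on the log2 scale (SE 0.68, unadjusted p = 0.0441, adjusted p = 0.999 by edgeR). It rested on 38 reads in 0Q and 165 in 100Q, with 2 of 3 and 3 of 3 libraries over the filter cutoff. Folr2 and Ear10 had 0 counts.

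Around arginase, 15 of 16 genes of arginine and polyamine metabolism were tested, 12 above 0 and 3 below, median 0.08. Oaz1, the antizyme that restrains ornithine decarboxylase, had 989 ± 179 CPM without queuine and 942 ± 16.0 CPM with it. Oat, the aminotransferase that uses ornithine, had 92.4 ± 18.0 and 115 ± 22.6 CPM (SD, n = 3 each, log2 fold change 0.31, SE 0.19). Arg2, the mitochondrial arginase, had 17.6 ± 7.75 and 17.5 ± 3.80 CPM. Nos2, the nitric oxide synthase that competes for arginine, had 0 counts in all 6 libraries.

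The opposite program, classical activation, had 13 of 19 genes tested, 6 above 0 and 7 below, median -0.02. Cd86, a costimulatory ligand, had 18.3 ± 6.03 CPM without queuine and 9.51 ± 2.00 CPM with it (SD, n = 3 each, log2 fold change -0.94, SE 0.37, unadjusted p = 0.0218, adjusted p = 0.999 by edgeR). It was 1 of 2 genes of the 13 whose 100Q libraries lay wholly below those of 0Q, against 3.86% of all tested genes. The other, named after its values were seen, was Il12a, a subunit of interleukin-12, at 2.45 ± 0.50 and 1.19 ± 0.51 CPM (SD, n = 3 each). Il12a passed the filter through the 0Q libraries alone, with 3 of 3 over the cutoff against 0 of 3 in 100Q, so it had to be lower in 100Q. Il23a and Cxcl9 had 0 counts, as Nos2 did. In the list of sequence relatives, 8 of the 19 in the table had 0 counts in all libraries and 8 were tested, 3 above 0 and 5 below, median -0.15.

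**Figure D5:**
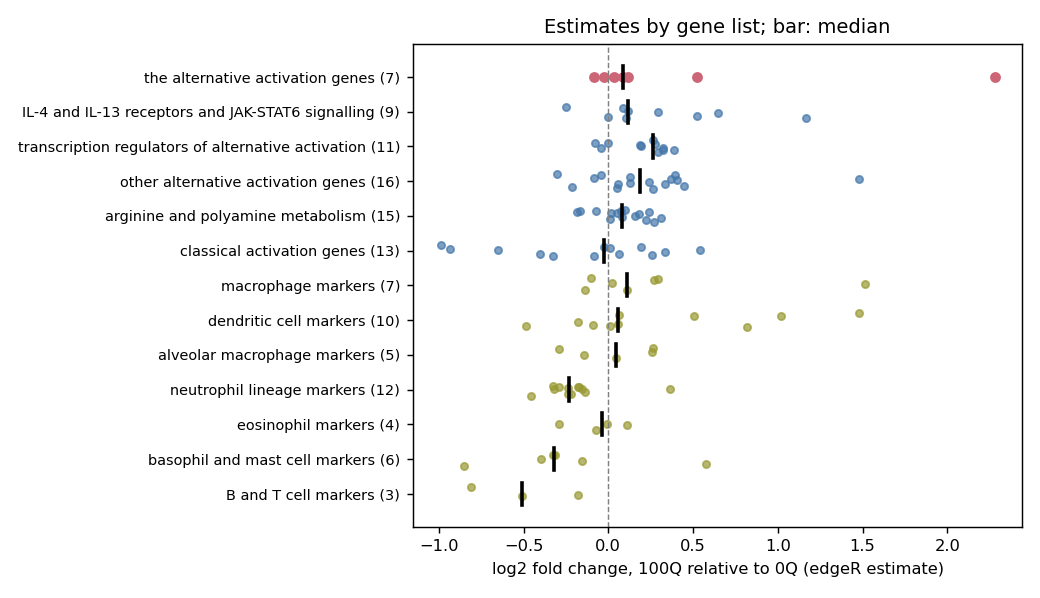
Estimated log2 fold change (100Q relative to 0Q) of each tested gene, by list, with the number tested in parentheses and a bar at each median. The 7 genes of the set are in red, with Arg1 apart at 2.28, and neutrophil lineage, basophil and mast cell, and lymphocyte markers have medians below 0.

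Markers of other cells that could hold these transcripts were read in the same libraries. Of the 12 neutrophil lineage genes 11 lay below 0, median -0.23. The 100Q libraries of 4 of them, Ngp, Camp, Ly6g and Lcn2, lay wholly below those of 0Q, against 3.86% of all tested genes, and all but Camp are named after their values were seen. S100a9 was the most abundant at 5933 ± 254 CPM without queuine and 5385 ± 603 CPM with it. Camp had the smallest unadjusted p of the list by edgeR, 0.00620, with an adjusted p of 0.999. For eosinophils, the cells after which Ear2 is named, 4 of 6 markers were tested, 1 above and 3 below 0, median -0.04. Their sum was 1383 to 1653 CPM without queuine and 1251 to 1679 CPM with it, most of it from Prg2, the granule major basic protein.

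Basophil and mast cell markers, of cells that make interleukin-4, were all tested, 1 of 6 above and 5 below 0, median -0.32 and a sum of 449 to 502 CPM without queuine and 344 to 442 CPM with it. Mcpt8 had 139 ± 25.2 and 111 ± 7.42 CPM (SD, n = 3 each), and the log2 fold change of Prss34 was -0.31 (SE 0.16). Of 8 alveolar macrophage markers 5 were tested, 3 above and 2 below 0, median 0.05, and the defining Krt79 and Cidec had 0 counts. Their sum was 268 to 379 CPM without queuine and 288 to 396 CPM with it, and Plet1 had 148 ± 25.6 and 177 ± 25.6 CPM. Among macrophage markers, 5 of 7 were above and 2 below 0, median 0.11. Cd68, a lysosomal protein of macrophages, had 911 ± 101 and 850 ± 153 CPM (SD, n = 3 each). Among dendritic cell markers 7 of 10 were above and 3 below 0, median 0.06, and Itgax, which encodes CD11c, was the 1 gene whose 100Q libraries lay wholly above those of 0Q, against 4.42% of all tested genes. For B and T cells 3 of 8 markers were tested, all below 0, median -0.51, a sum of 9.17 to 18.7 CPM without queuine and 7.41 to 16.4 CPM with it, and Cd3e at 0. The part of these cells in the levels of the 8 genes was not tested.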

How the data were processed

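mRNA of 6 cultures, 3 in 0Q and 3 in 100Q, was sequenced. The table deposited by the authors holds expected counts, not normalized. FastQC, STAR and RSEM on mm39 (GRCm39) are named per the submitters' processing notes. The sources used here do not give their versions, the annotation release or the strand setting. RSEM divides ambiguous reads, and 5.51% to 10.53% of values per library were not whole, over all 57132 identifiers. A count of 0 is always whole, so the share among detected genes is higher. Of 57132 identifiers, 502 were unmatched in GENCODE release 39, and no column of values went unused. Counts were rounded and tested with edgeR 4.0.16 (filterByExpr, TMM, robust glmQLFit, glmQLFTest, Benjamini-Hochberg, threshold 0.05) in R 4.3.3, over 10554 genes in 1 comparison. The script was tested on simulated data. CPM used library totals over tested genes, scaled by TMM factors. Whether wells came from different mice is not in the labels, and the spread between cultures behind each p-value may be technical.

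The 8 genes and all lists were chosen from general knowledge with earlier results of these data known. Named genes were the 8, the most abundant gene and the gene of smallest unadjusted p of each of 13 lists, the 2 genes most correlated with each of the 8 at 100 CPM or more, and sequence relatives. A few genes under this rule are not reported here. Others are said to be named after their values were seen. Promoters came from RefSeq (GRCm38.p6). Alternatives were DESeq2 1.42.0, limma-voom (limma 3.58.1), other scalings, filters, rounding and lengths, relatives summed, a replicate block and each library left out.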

Additional observations from a re-analysis of the deposited data

How the results depend on the processing

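Genes past the threshold numbered 0 as reported, 2 without 0Q replicate 1 (Gvin2 and Gm46542), 1 without 0Q replicate 2 (Gm2446) and 0 in every other setting run. DESeq2 had 356 genes and limma-voom 310 at an unadjusted p under 0.05. Of the 8 genes, 0 passed in any setting. The median of those tested, 0.09, was 0.0047 without 100Q replicate 1 and 0.27 without 100Q replicate 2, its lowest and highest values with a library omitted. The cause was not tested. Settings added after the data were seen were the deepest library thinned, where the log2 fold change of Arg1 was 2.13, and Arg1 summed with Gm36172. Arg1 was left out under a filter of 10 CPM, and limma-voom gave 2.80. With the replicate block, 0 genes passed, the median was 0.07 and Arg1 had 2.49. With the block, 421 genes had an unadjusted p under 0.05 by edgeR, against 309 as reported. The SE fell with the block for Chil3, Mrc1 and Mgl2 (0.18 to 0.12 for Mgl2). It rose for Arg1 (0.86 to 0.94), Ear2, Clec10a and Il4ra. Over all tested genes, same-numbered libraries had deviations correlated at 0.0248, 0.0975 and -0.0216, others at -0.116 to 0.12. By that measure the numbers are not shown to pair the cultures. Below about 10 reads per library, as for Arg1 in 0Q, counting error limits precision.

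Signs changed in 7 of 42 values of the set with a library left out and in 1 of 75 in other settings, and for other named genes in 18 of 162 and 8 of 293, with 0 called. Over omitted libraries the log2 fold change was -0.13 to 0.15 for Mrc1, -0.12 to 0.15 for Ear2, -0.073 to 0.27 for Mgl2 and -0.0030 to 0.28 for Clec10a. It was -0.12 to 0.11 for Bhlhe40, -0.11 to 0.13 for H2-Aa, -0.094 to 0.095 for Psmd10, -0.19 to 0.082 for Oaz1 and -0.20 to 0.016 for Prg2. It was -0.081 to 0.13 for Atp6v0d2, -0.058 to 0.13 for Psma4, -0.0022 to 0.26 for Il2rg, -0.013 to 0.25 for Mmp12 and -0.25 to 0.012 for Cd68. Ear2 was -0.11 with relatives summed. Bhlhe40 was -0.010 by DESeq2, -0.0097 with DESeq2-type size factors and -0.0040 by limma-voom, and H2-Aa was -0.0025 and -0.0027 in the first 2 of these. Psmd10 was 0.015 with library totals alone, 0.0061 under the 10 CPM filter and 0.0050 without a filter.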

Other observations

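Some genes of the lists stayed under the filter on low counts in these libraries and have no test, and 3 of them are given here after their values were seen. Cxcl10, an interferon-induced chemokine of classical activation, had 0.72 ± 0.43 CPM without queuine and 3.30 ± 1.46 CPM with it. It rested on 13 counts in 0Q and 98.8 in 100Q, with 0 of 3 and 2 of 3 libraries over the cutoff. Of the 13 tested genes of classical activation, 6 lay above 0 and 7 below. Alox15, a lipoxygenase that interleukin-4 induces, had 3.44 ± 3.97 and 1.05 ± 0.74 CPM, with an SD in 0Q larger than its mean. C1qb, a complement component of mature macrophages, had 2.66 ± 1.05 and 0.63 ± 0.24 CPM (SD, n = 3 each). It rested on 41 reads in 0Q and 22 in 100Q, with 2 of 3 and 0 of 3 libraries over the cutoff. Of the 7 tested macrophage markers, 5 lay above 0 and 2 below. How many other untested genes differed as much was not counted.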
